A study of Rattus norvegicus with 10 samples.

Results

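Transcripts of the insulin-like growth factor (IGF) system were described here in rat milk whey and serum: the growth factors Igf1 and Igf2, the receptor Igf1r, and the binding proteins Igfbp1 to Igfbp6. They were followed as the 15 probes that carried 1 of these 9 gene names among 41012 non-control probes of a rat genome array. RNA was taken from whey, the watery part of milk that remains once cells, fat and casein are spun out and the rest is filtered, and from serum. The same 3 F344/N dams gave whey at d 2, d 9 and d 16 postpartum (1 array per dam and day, 9 arrays), and serum RNA of those 3 rats at d 21 was mixed for a single array. All dams were untreated apart from milking: they were bought pregnant at 14 weeks of age, kept from their litters for some hours, given oxytocin, which makes the gland let milk down, and milked under light sevoflurane. The serum array is a pool and has no replicate, so no test of serum against whey was possible. Serum was drawn on a day without whey, so fluid and day cannot be told apart there.

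IGF-I and IGF-II are secreted peptides that promote cell growth and survival. They signal through the IGF-I receptor, a tyrosine kinase at the cell surface. In blood and milk they are carried by the IGF binding proteins, which lengthen their life and can either restrain or deliver them, and in mammary gland the system is known for its part in growth during pregnancy and in the cell loss of weaning. Liver is the main source of circulating IGF-I.

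Igf1 had 4 probes, Igfbp3, Igfbp4 and Igfbp5 had 2 each, and the other 5 genes had 1. Each probe is 60 bases long. The array's annotation, on build rn4, gave chromosome positions but no exon or UTR, and no genome of that build was used. Igfbp1 and Igfbp3 are neighbours on chromosome 14, with 5698 bases between their nearest probes. Igfbp2 and Igfbp5 are neighbours on chromosome 9, with 33095 bases between theirs. Of the 15 probes, 12 carried a RefSeq transcript accession, and all 12 matched the same gene symbol in the RefSeq table.

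The probes of 3 binding proteins are shown because they gave 3 different pictures: Igfbp2 was read in whey, Igfbp6 mainly in serum, and the Igfbp3 probe below stayed at the level of the background although it was printed 10 times on each array. The capitals mark the longest run of letters that the Igfbp3 and Igfbp6 probes share, 12 bases. All are written 5′ to 3′ as the array files give them.
Igfbp2 A_44_P547185 (chr9:71967157-71967216, plus strand, 70% G and C): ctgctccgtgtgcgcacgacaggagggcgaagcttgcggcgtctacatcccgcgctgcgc
Igfbp6 A_44_P378799 (chr7:140888422-140888481, plus strand, 55% G and C): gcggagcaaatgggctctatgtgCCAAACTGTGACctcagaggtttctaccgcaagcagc
Igfbp3 A_44_P180127 (chr14:87961611-87962505, minus strand, 45% G and C): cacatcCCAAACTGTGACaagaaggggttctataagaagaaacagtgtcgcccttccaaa
The last position spans 895 bases of genome for a 60-base probe.

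The members detected in whey were Igf1, Igfbp1 and Igfbp2, and those in serum Igf1, Igfbp4 and Igfbp6. Detection in a group needed at least 1 array on which the spot was well above background by the scanner software's test and the processed signal (the background-subtracted brightness, in arbitrary units) was over 20. In d 2 whey 3 of the 15 probes were detected, against 28.7% of all 41012 probes, and these read Igf1, Igfbp1 and Igfbp2. In d 9 whey there were again 3, for the same 3 genes, against 39% of all probes. In d 16 whey there were 3, once more for these genes, against 32.3%. The Igf1 probe detected was not the same on all days. At d 2 it was A_44_P421499, on 1 of 3 arrays (signal 21.2), and at d 9 and d 16 it was A_44_P366723, on 3 of 3 each. Serum also had 3, 1 each for Igf1, Igfbp4 and Igfbp6, against 8.6%.

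Over all whey arrays together 4 probes of 3 genes were detected (41.1% of all probes were). Only 1 of the 4, the Igf1 probe A_44_P366723, was also detected in serum. In all, 6 probes of 5 genes were detected in whey or serum. At the other end, 6 of the 15 probes were not well above background on any of the 10 arrays, compared with 48.4% of all probes, and these included every probe of Igf1r and Igfbp5. All signals of the members were low: the lowest signal among probes well above background was 7.56 to 10.01 per array, and no member reached 100 on any array.

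**Figure D1:**
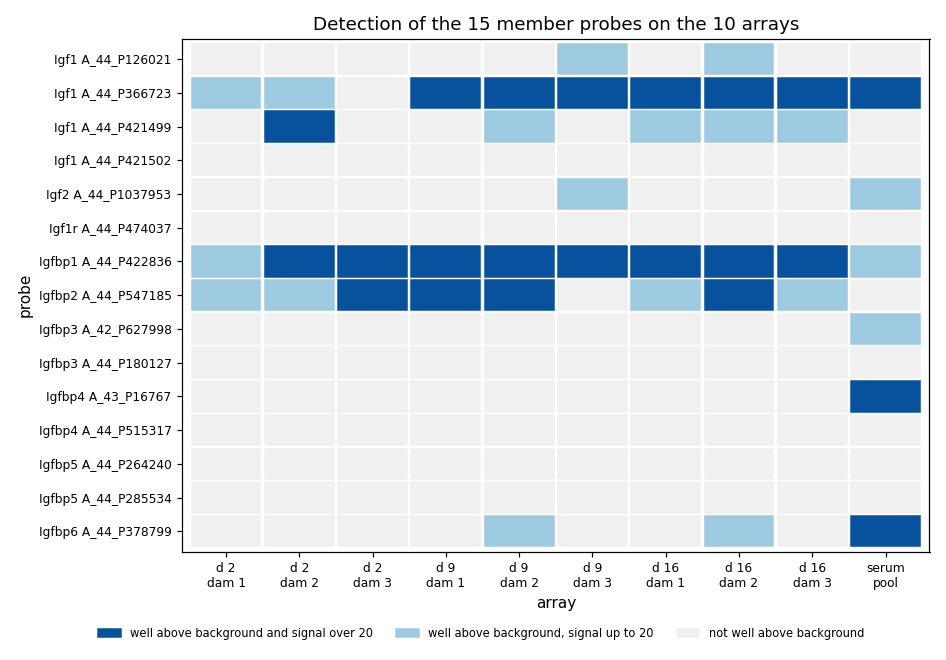
Detection of the 15 member probes (rows, gene and probe name) on the 10 arrays (columns, 3 dams at each of 3 days and the serum pool). Dark blue cells were well above background with a processed signal over 20, light blue cells were well above background with a lower signal, and grey cells were not well above background. Igf1 A_44_P366723, Igfbp1 and Igfbp2 fill most of the whey columns, while Igfbp4 A_43_P16767 and Igfbp6 are dark in the serum column alone.

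The arrays differed in overall brightness, and this touches every comparison between days and fluids. The 75th percentile of the processed signal ran from 12.5 to 83.2 over the whey arrays and was 4.11 on the serum array, whereas the mean of 9 spiked control transcripts ran only from 7148 to 10591 over the 10 arrays. Levels below are log2 signals after quantile normalization, which gives every array the same distribution of values. Signs were checked under 3 other scalings for the member differences tested, the members set against serum, and the calls among further pathway genes. Cell type markers, and pathway probes not called, were read after quantile normalization alone. The arrays lay on 3 slides. All d 16 arrays and the serum pool were on a slide of their own that was scanned on a later day, so d 16 and that slide cannot be told apart. Slide 2 held d 2 dam 3 and the 3 d 9 arrays.

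Igf1, the gene of IGF-I, held the only member probe called between days, and its probes did not all move alike. The probe called, A_44_P366723 (chr7:24604715-24604774, plus strand) had processed signals of 10.7, 9.23 and 4.79 in d 2 whey of dams 1, 2 and 3. At d 9 the same dams gave 35.1, 38.6 and 49.3. At d 16 they gave 48.0, 42.6 and 59.8. Before normalization the d 2 signals all lay below those of both later days, and all were close to the limit of the measurement. The lowest signal well above background was 9.13, 8.13 and 8.79 on the d 2 arrays of dams 1, 2 and 3. At d 2, dam 3 was not well above background.

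After normalization the Igf1 level at this probe was 3.34 ± 1.08 log2 units at d 2 (SD, n = 3), 4.57 ± 0.68 at d 9 and 5.25 ± 0.54 at d 16. The d 16 level was 1.91 log2 units above d 2 (SE 0.58, 95% interval 0.56 to 3.25, 3.75-fold). That fold takes the value of d 2 dam 3 as measured, although it was not well above background. The limma adjusted p for d 16 against d 2 was 0.0432, adjusted over 16849 probes detected in whey, and the level was higher in 3 of 3 dams with no overlap between the days. The probe entered that test through d 9 and d 16 alone, since it was detected on 0 of 3 arrays at d 2, and when all 41012 probes were tested the adjusted p was 0.102. In that comparison 28.5% of all probes tested were called, 16% as higher on d 16, and 48.2% did not overlap. The step from d 2 to d 9 was 1.23 log2 units (SE 0.58, limma adjusted p = 0.177) with the normalized values of the 2 days overlapping, and 17.6% of all probes were called there. From d 9 to d 16 the difference was 0.68 log2 units (limma adjusted p = 0.558), and 1.42% of all probes were called. In order, the level ran from d 2 through d 9 to d 16, and neither pair of neighbouring days differed beyond its spread.

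The Igf1 call at d 16 rests on few arrays and lies close to the threshold. It was lost without d 2 dam 2 (limma adjusted p = 0.0894), d 2 dam 3 (0.0929), d 9 dam 2 (0.0661), d 16 dam 1 (0.119), d 16 dam 2 (0.0583) or d 16 dam 3 (0.115), while the difference stayed positive between 1.34 and 2.41 log2 units. It was also lost by a Tukey-Kramer test whose p was likewise adjusted over the probes detected in whey (adjusted p = 0.182). The size of the difference depended on the processing: it was 0.49 log2 units with normexp and 2.55 with spike-in scaling. The step from d 2 to d 9 was called under spike-in scaling (2.66 log2 units, limma adjusted p = 0.00432) but not with the slide as a fixed block, which compares d 9 with the 1 d 2 array of its slide (2.37, 0.103).

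Macrophages and mesenchymal cells are known to make IGF-I, and markers of both were set beside the Igf1 difference. The levels of 7 macrophage markers were summed and the log2 of the sum taken, so that the brightest marker weighs most. It was 8.42 to 8.86 at d 2, 8.36 to 9.51 at d 9 and 10.2 to 10.7 at d 16. Of 9 macrophage marker probes tested, 7 were called higher and 2 lower at d 16 than at d 2 (16% and 12.4% of all probes tested), and 5 higher and 2 lower at d 9 (11.3% and 6.36%). The defining marker Csf1r, the macrophage growth factor receptor, was not well above background on any array. For 7 fibroblast and fat cell markers the log2 of the sum was 5.01 to 5.20 at d 2, 4.89 to 6.27 at d 9 and 5.01 to 5.36 at d 16. Lum and Pdgfra were never well above background. Of 5 probes tested for these markers, 1 was called higher than at d 2 at d 9 and 1 at d 16 (11.3% and 16% of all probes tested). The part of either cell type in the Igf1 difference was not tested. In these fluids, a change in the number of source cells and a change in RNA per cell cannot be told apart.

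The other Igf1 probe that was detected in whey, A_44_P421499 (chr7:24533810-24533869, plus strand), did not follow the first. Its processed signals were 11.3, 21.2 and 10.5 at d 2 for dams 1 to 3. They were 6.94, 14.6 and 9.29 at d 9 and 13.9, 16.2 and 15.9 at d 16. These values crowd around the detection limit: the probe was well above background in 1 of 3 arrays at d 2, 1 of 3 at d 9 and 3 of 3 at d 16.

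On the normalized scale A_44_P421499 was at 4.11 ± 0.77 log2 units at d 2, 2.76 ± 0.63 at d 9 and 3.61 ± 0.28 at d 16 (SD, n = 3 each). The d 9 level was 1.35 log2 units lower than d 2 in the point estimate (later minus earlier -1.35, SE 0.44, 95% interval -2.36 to -0.33), lower in each of the 3 dams and without overlap, as for 38.8% of all probes. The probe was tested only because it was detected on 1 array, d 2 dam 2, of the group where it is high. Its limma adjusted p was 0.0698, and 6.36% of all probes were called lower at d 9. With the dam as a block, which the repeated sampling of the same animals allows, the adjusted p was 0.0358, with the slide as a random block 0.0465, and without d 2 dam 3 it was 0.0218. With the slide as a fixed block the difference was -0.46 (0.651), and the remaining alternatives run made no call. The differences of d 16 from d 2 (-0.50, limma adjusted p = 0.424) and from d 9 (0.85, limma adjusted p = 0.341) did not pass, although the d 16 values did not overlap those of d 9, as for 29.3% of all probes.

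The 2 Igf1 probes start 70905 bases apart on chromosome 7, and A_44_P421499 was annotated to a single cDNA record in place of the RefSeq transcript given for A_44_P366723. Over the 9 whey arrays their normalized levels had a Pearson correlation of 0.038 and a Spearman correlation of 0.033, given as a description of arrays that share dams. The difference between the 2 probes was not tested. The remaining 2 probes of Igf1 were never detected. A_44_P126021, whose annotated position spans 5094 bases, read 2.29 to 3.03 at d 2, 7.35 to 15.9 at d 9 and 9.87 to 16.4 at d 16 and was well above background on 1 array of each later day. Like A_44_P366723, before normalization it was lower on all 3 d 2 arrays than on any later whey array. After normalization this held for A_44_P126021 but not for A_44_P366723, where d 2 dam 1 (4.35) was above d 9 dam 3 (3.94). A_44_P126021 was not among the probes tested. With all 41012 tested, its limma adjusted p for d 16 against d 2 was 0.0142 (1.81 log2 units). It was well above background on 0 of 3 arrays at d 2 and 1 of 3 at d 16. A_44_P421502, which abuts A_44_P421499 and was printed 10 times per array, stayed between 1.84 and 3.01 on all 10 arrays.

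Igfbp1, a binding protein whose gene is controlled by insulin in liver, was the only member well above background on all 10 arrays. Its processed signals at d 2 were 16.5, 21.0 and 22.03 for dams 1 to 3. At d 9 they were 25.8, 43.4 and 35.5, and at d 16 they were 32.2, 27.5 and 35.7. Before normalization its signal on every later whey array was above that on every d 2 array, while the 75th percentile of all signals was 12.5 to 28.0 on the d 2 arrays and 21.2 to 83.2 on the later ones.

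After normalization Igfbp1 stood at 4.63 ± 0.38 log2 units at d 2, 4.35 ± 0.71 at d 9 and 4.63 ± 0.54 at d 16 (SD, n = 3 each), and the 3 days overlapped. The largest of the 3 differences between its day means was d 9 minus d 2, -0.29 log2 units with a 95% interval of -1.23 to 0.66 (limma adjusted p = 0.654). For d 16 minus d 2 the interval was -0.95 to 0.95, so that changes up to 1.93-fold in either direction were within the error. Under spike-in scaling the d 9 value was instead 1.08 log2 units above d 2 (limma adjusted p = 0.165). The genes most like Igfbp1 over the 9 whey arrays, among 6320 probes well above background on all of them, were Ube2v1 (Pearson r = 0.951), Btbd17 (0.946) and Scamp4 (0.943). These are the highest of 6320 correlations over few arrays that share dams. They are given as a description and were not tested.

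Igfbp2, a binding protein found in many tissues and body fluids, differed more among the arrays of 1 day, at d 2 and at d 9, than between day means. Its processed signals were 18.4, 8.49 and 29.8 at d 2, 20.02, 37.6 and 7.32 at d 9, and 13.3, 20.3 and 16.9 at d 16. It was well above background on 8 of 9 whey arrays, the exception being d 9 dam 3, the brightest array of the series. The serum signal was 1.55, not well above background and below every whey array.

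The Igfbp2 level was 4.41 ± 0.94 log2 units at d 2, 3.58 ± 1.54 at d 9 and 3.72 ± 0.12 at d 16 (SD, n = 3 each). The 95% interval of d 9 minus d 2 ran from -2.57 to 0.92 (limma adjusted p = 0.468), and that of d 16 minus d 2 from -2.43 to 1.06 (limma adjusted p = 0.526). d 9 minus d 2 changed sign without d 9 dam 3, from -0.82 to 0.07 log2 units. In folds, the intervals allowed an Igfbp2 level at d 9 between 0.169 and 1.90 times that of d 2.

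An F test over the 3 days, which called 25.6% of all probes tested, called none of the 4 member probes. Its limma adjusted p was 0.0886 for Igf1 A_44_P366723, 0.108 for Igf1 A_44_P421499, 0.788 for Igfbp1 and 0.615 for Igfbp2.

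**Figure D2:**
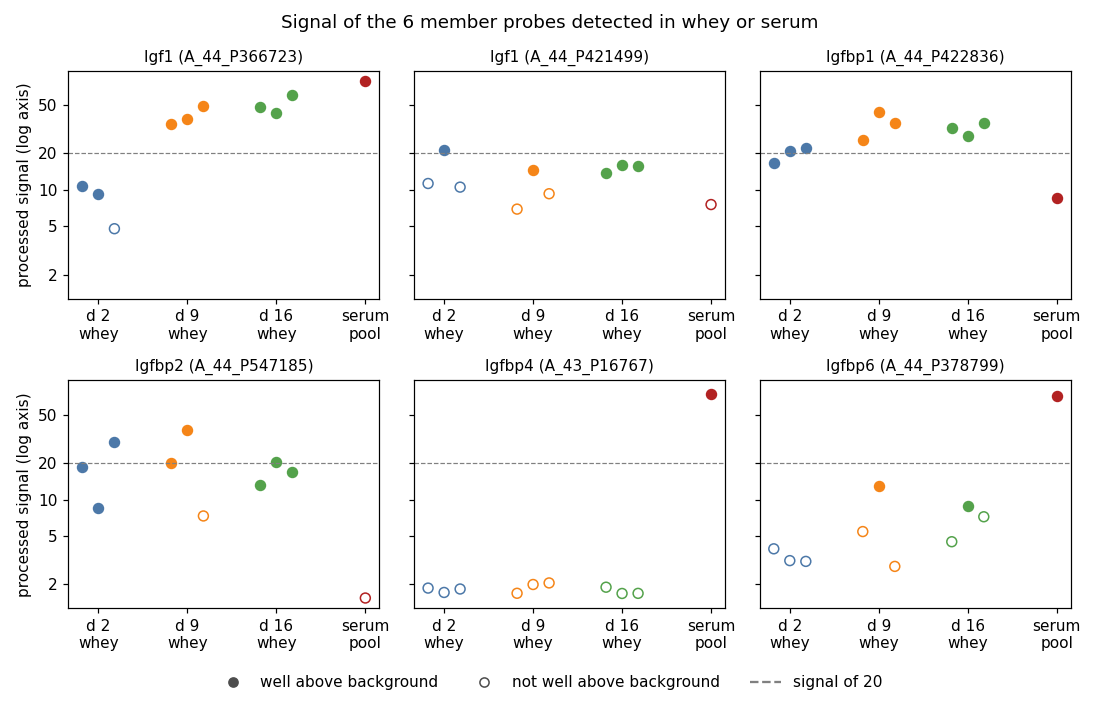
Processed signal (arbitrary units, log axis) of the 6 member probes detected in whey or serum, by array. Points are single arrays, ordered by dam within each day, filled where the spot was well above background and open where it was not, and the dashed line marks the signal of 20 used for detection. Before normalization, as drawn here, the Igf1 probe A_44_P366723 lies below 11 on all d 2 arrays and above 35 on all later whey arrays. Igfbp4 A_43_P16767 and Igfbp6 are above 70 in serum and below 13 in whey.

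**Figure D3:**
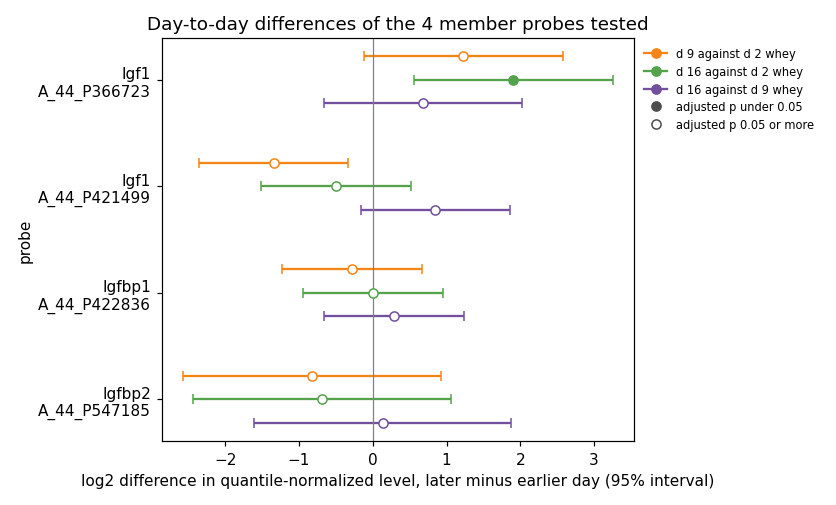
Differences between days (x axis, log2 of the quantile-normalized level, later minus earlier day) for the 4 member probes tested, with 95% intervals from limma. Filled points had an adjusted p under 0.05, and the only one is Igf1 A_44_P366723 for d 16 against d 2, at 1.91.

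Igf2, the gene of the fetal growth factor IGF-II, was read at its single probe in 1 whey array and in serum. Whey signals were 3.17, 1.71 and 5.62 at d 2, 7.91, 2.02 and 15.8 at d 9, and 1.88, 1.67 and 1.67 at d 16. Only the value of d 9 dam 3 was well above background. The serum signal was 16.9 and well above background, close to the d 9 dam 3 value before normalization.

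Igf1r, the receptor, gave no reading in either fluid. Its probe was printed 10 times per array, and the mean over spots ran from 1.99 to 2.84 in whey and was 1.74 in serum. The median of its spots was 1.73 to 2.52 per array, and single bright spots, up to 63.2 on d 9 dam 3, were left out as outliers by the scanner software. With so low a signal, an Igf1r transcript was not detectable here, which sets no level for it.

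Igfbp3, the main carrier of IGF-I in blood, was read in serum at 1 of its 2 probes. A_42_P627998 gave 15.2 in serum, well above background, and 1.81 to 11.2 over the whey arrays, none of them well above background. Its 3 d 9 arrays (5.21, 11.2 and 7.95) were all higher than the d 2 arrays (2.04, 1.81 and 2.31), although none of these can be told from background. The probe printed 10 times, A_44_P180127, had 7.22 in serum and 2.59 to 6.60 in whey.

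Igfbp4, which binds IGF-I and is cut by the protease pappalysin (Pappa), differed sharply between its probes. A_43_P16767 (chr10:87834213-87834272, plus strand) read 73.8 in serum and 1.69 to 2.06 on the 9 whey arrays. A_44_P515317 (chr10:87829564-87829623, plus strand) read 3.31 in serum and 1.70 to 7.36 in whey, and was never well above background. The 2 probes thus disagree on Igfbp4 in serum. The letters of A_43_P16767 are 55% T and 30% G and C, against 16.7% T and 51.7% G and C in A_44_P515317, and whether this bears on the serum signal was not tested.

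Igfbp5, a binding protein known for its rise in mammary gland at involution, was not well above background at either probe on any array. A_44_P264240 ran from 1.68 to 4.48 in whey and was 3.06 in serum, and A_44_P285534 ran from 1.93 to 8.86 in whey and was 6.24 in serum. Igfbp6, which binds IGF-II in preference to IGF-I, read 70.8 in serum. In whey it read 3.93, 3.14 and 3.095 at d 2, 5.45, 12.9 and 2.82 at d 9, and 4.49, 8.83 and 7.21 at d 16. It was well above background in whey of dam 2 at d 9 and at d 16 only.

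Set against the mean of the 9 whey arrays, 9 member probes had a reading well above background on at least 1 array of either fluid. After quantile normalization 7 of the 9 were more than 4-fold higher in serum, against 15.7% of 21151 probes, and 1, Igfbp2, was more than 4-fold higher in whey, against 27.3%. The count for whey takes the serum value of Igfbp2 as measured, although it was not well above background. Of the 7, the Igf1 probes A_44_P126021 and A_44_P421499 were not well above background in serum, so that their serum levels are upper limits. These counts depend on the scaling, because the serum array was so dim. With spike-in scaling, which keeps that difference in brightness, 4 probes were more than 4-fold higher in serum and 1 in whey. With scaling on the 75th percentile the counts were 7 and 0, and with normexp background correction 3 and 0. Over these 21151 probes, each well above background on at least 1 array, the median of serum minus whey was -0.77 log2 units after quantile normalization. It was 0.12 with the 75th percentile, -2.69 with the spike-ins and -0.14 with normexp.

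Igfbp4 A_43_P16767 and Igfbp6 were higher in serum under all 4 scalings. No whey array measured this Igfbp4 probe, so its difference is a bound. The other Igfbp4 probe, A_44_P515317, was not well above background in serum or whey and has no bound. For A_43_P16767 the serum pool was at least 98.4-fold higher after quantile normalization and at least 60.1-fold with the 75th percentile. It was at least 8.53-fold higher with the spike-ins and at least 12.7-fold with normexp. The bound sets the serum level against the mean over whey arrays of the lowest signal well above background on each. Igfbp6 was measured on only 2 of 9 whey arrays. With the other 7 set to the same floor, the serum pool was at least 90.5-fold higher after quantile normalization, at least 55.3-fold with the 75th percentile, at least 7.84-fold with the spike-ins and at least 11.0-fold with normexp.

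Igf1 A_44_P366723 was at 9.71 log2 units in serum, above all 9 whey arrays (2.20 to 5.73). The serum pool was 40.0-fold above the whey mean after quantile normalization but 3.16-fold with the spike-ins. These folds take d 2 dam 3 as measured. With that array at the floor, the serum pool was at least 37.7-fold and at least 2.96-fold higher. Before any scaling the serum signal of this probe was 78.5, against 59.8 on the brightest whey array. Igf2 was measured on 1 of 9 whey arrays, and with the other 8 at the floor it was at least 19.9-fold higher in serum after quantile normalization and at least 1.85-fold with the spike-ins, where its serum level lay within the whey range. Igfbp3 A_42_P627998 was at least 17.9-fold higher in serum after quantile normalization and at least 1.74-fold with the spike-ins.

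For Igfbp1 the direction itself turned. It was 2.98-fold higher in serum after quantile normalization, 2.22-fold higher with the 75th percentile, and 3.18-fold higher in whey with the spike-ins. Igf1 A_44_P421499 turned as well, from whey minus serum -2.35 log2 units to 0.73 with the spike-ins. It was well above background on only 5 of 9 whey arrays and not in serum, so no fold is given in either direction. For Igfbp2, which serum did not measure, the serum level was set to its upper limit. Whey was then 2.22-fold above serum with the spike-ins and 1.04-fold with normexp. These folds take whey of d 9 dam 3 as measured, although it was not well above background, so they are not lower bounds. Under the other scalings the fold did not exceed 1, so that no direction is given there.

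**Figure D4:**
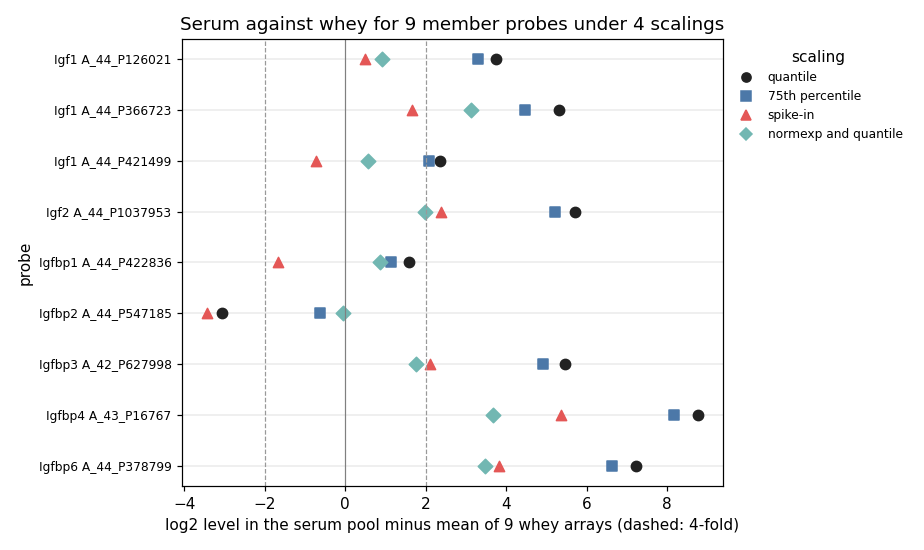
Log2 level in the serum pool (1 array) minus the mean of 9 whey arrays for the 9 member probes read on at least 1 array, under 4 scalings (symbols). Dashed lines mark 4-fold. Igfbp4 A_43_P16767 and Igfbp6 lie to the right of 2 under every scaling, Igfbp2, whose serum value was not well above background, lies left of 0, and Igfbp1 and Igf1 A_44_P421499 cross 0 with the spike-ins.

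Markers of several cell types were read in the serum pool. The log2 of the summed levels of 10 liver markers was 10.02 in serum, with 5 of 10 well above background. In whey it was 4.45 to 5.35, with 1 of 10 well above background. The defining liver markers Ahsg, Apoa1, Fgb and Serpina1 were not well above background on any array. All marker sums were taken after quantile normalization alone, and serum against whey depended on the scaling for the members. On that scale Igf1 A_44_P421499 stood at 5.84 in serum without being well above background, above every whey sum of the liver markers. The log2 of the sum in serum was 16.4 for 4 platelet markers and 15.2 for 3 red cell markers. It was 13.1 for the macrophage markers and 11.2 for the fibroblast and fat cell markers. For 10 markers of milk-secreting epithelium it was 12.9 in serum and 19.99 to 20.5 in whey. The part of any of these cell types in the serum levels of Igf1, Igfbp4 and Igfbp6 was not tested.

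A list of further genes was set beside the members. Of 28 listed genes of IGF and insulin signalling and IGF handling, 26 had a probe, and 14 of their 37 probes, for 11 genes, were detected in whey and tested, where 41.1% of all probes were detected. At d 9 against d 2, 3 of the 14 were called higher and 1 lower (11.3% and 6.36% of all probes tested), with a median difference of 0.08 log2 units. At d 16 against d 2, 5 were called higher and 2 lower (16% and 12.4% of all), with a median of 0.22. None was called between d 9 and d 16. The insulin receptor Insr, the acid-labile subunit Igfals, the proteases Pappa and Htra1 and both insulin genes were not detected in whey.

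Igf2r, the receptor that takes up IGF-II for breakdown, was called higher at d 16. Its processed signals were 17.0, 21.0 and 26.1 at d 2 and 48.1, 82.1 and 79.6 at d 16. The difference was 0.95 log2 units (SE 0.18, limma adjusted p = 0.00756), it kept its call in each of the 9 fits that left out 1 array, and with the spike-ins the difference was larger but not called (1.57, 0.219). Ghr, the growth hormone receptor, which drives Igf1 in liver, was 0.57 log2 units higher at d 16 than at d 2 (limma adjusted p = 0.0207). The Ghr call was lost without d 2 dam 2 (0.0714), d 16 dam 2 (0.0542) or d 16 dam 3 (0.0742).

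Irs1, an adaptor that links the IGF-I and insulin receptors to their signal, had the smallest p of the pathway. Its signals were 2.32, 2.36 and 2.43 at d 2, none well above background, 8.42, 18.3 and 26.7 at d 9, and 9.80, 16.3 and 15.8 at d 16. It was called at both later days (limma adjusted p = 0.000492 at d 9 and 0.000155 at d 16). It entered the test through d 9 dam 3 alone, the only array on which it was detected, and with all 41012 probes tested the adjusted p was 0.00102 at d 9 and 0.000451 at d 16. Because d 2 was not measured above background and 2 of 3 arrays were on each later day, the bound on its fold did not exceed 1 and no fold is given. Irs2, a second adaptor, was called lower at d 9 and d 16 at A_44_P503503 (-0.67 and -0.56 log2 units, limma adjusted p = 0.0366 and 0.0444) but at neither day at A_44_P684795 (0.10 and -0.73). The Irs2 call at d 9 turned to 0.60 higher under spike-in scaling (0.432). It was lost in 6 of 9 fits that left out 1 array, those without d 2 dams 1 or 2, d 9 dams 2 or 3 and d 16 dams 2 or 3 (up to 0.107), and the d 16 call was lost without any d 2 array, d 9 dam 2 and d 16 dams 2 or 3 (up to 0.138).

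Pik3ca, the catalytic subunit of the lipid kinase downstream of both receptors, was higher by 1.07 log2 units at d 9 and 1.00 at d 16 (limma adjusted p = 0.0326 and 0.0276). Akt1, the kinase that acts next, was 0.79 higher at d 9 (0.0408), and Shc1 was 0.49 higher at d 16 at A_44_P973186 (0.0299) with its other 2 probes not called. The Pik3ca call at d 9 was lost without d 2 dams 1 or 2 or any d 9 array (limma adjusted p up to 0.0849), and at d 16 without d 2 dams 1 or 2 or d 16 dams 1 or 3 (up to 0.0939). The Akt1 call was lost without d 2 dams 2 or 3, any d 9 array or d 16 dam 2 (up to 0.111), and the Shc1 call without d 2 dams 1 or 2 or any d 16 array (up to 0.100). Grb10, an adaptor that restrains the insulin and IGF-I receptors, was called lower at d 16 by limma (-1.13 log2 units, adjusted p = 0.0168), with processed signals of 14.3, 38.0 and 44.9 at d 2 and 13.3, 30.7 and 22.5 at d 16. The Grb10 call was lost without d 2 dam 2 (0.0558), d 16 dam 1 (0.0530) or d 16 dam 3 (0.0563).

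Irs1 was the only 1 of these 8 pathway genes whose calls were made under every alternative that tested its probe. None of its d 2 values was well above background, so these alternatives reused d 2 values that were not measured. The filters that required every whey array to be well above background, or a higher minimum signal, left its probe out. Whether its calls would hold against a measured d 2 level therefore cannot be decided. With spike-in scaling, 753 probes were called in place of 4801 for d 16 against d 2. Irs1 was the only 1 of the 7 genes called at d 16 to keep its call there. For d 9 against d 2 that scaling called 6882 probes in place of 2969. Irs1, Akt1 (2.26 log2 units, limma adjusted p = 0.0134) and Pik3ca (2.51, 0.00678) kept their d 9 calls under it, and Irs2 did not. With the slide as a fixed block at d 9 the adjusted p was 0.00227 for Irs1, 0.141 for Akt1, 0.332 for Irs2 A_44_P503503 and 0.338 for Pik3ca (limma).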

How the data were processed

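RNA of 9 whey samples and 1 serum pool (100 ng each, per the labels) was labelled with Cy3 and hybridized to 1-colour Agilent rat arrays. The deposited scanner files hold intensity values per spot from Agilent Feature Extraction 9.5.3.1 (per the labels and headers): the authors' processed signal, already background-subtracted, and flags. A deposited table of log2 values was not used, since its 10 array columns name no sample. Quantile normalization and a minimum signal of 20 follow the authors' methods, but the scanner's background flag and the processed signal stand in for their software's presence call and raw signal, so numbers of probes detected need not match theirs.

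Here log2 processed signals of 43379 non-control spots were quantile normalized over 10 arrays, outlier spots (93 to 121 per array) were dropped, and spots of a probe were averaged. No spot was saturated. A probe was above background when more than 0.5 of its spots were. Probes detected in whey (16849) were tested with limma 3.58.1 in R 4.3.3 (lmFit, eBayes) on the 9 whey arrays at a threshold of 0.05 after Benjamini-Hochberg adjustment over these probes. There were 3 arrays per day, 1 per dam, whose number limits the precision. The p-values measure the spread among arrays of the same day, in a fit that left out dam and slide. Serum was described by folds over 4. A bound sets the brighter group's mean against, per array, the higher of the lowest signal well above background and the probe's own.

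The dam number pairs the arrays, since the labels name the same rats. Deviations from the day means correlated between arrays of 1 dam at -0.02 to 0.22 (median 0.11), and between dams at -0.25 to 0.16 (median -0.05). All member probes were named, as were pathway genes with a call between any days (8, under a maximum of 10), and the 3 genes most like a member well above background on all whey arrays. Members and lists were chosen with earlier results of these data known. The alternatives were other scalings (75th percentile, spike-ins, whey arrays alone), normexp with offset 50, other filters, blocks, eBayes trend, the Tukey-Kramer test and leaving out each array. The test was checked on simulated data with independent noise and no dam, slide or brightness effect, so the check does not bear on those.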

Additional observations from a re-analysis of the deposited data

How the results depend on the processing

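Under the 75th percentile, normexp, spike-in and whey-only scalings, the replicate block of dam, the random slide block and eBayes with trend, the difference of Igf1 A_44_P366723 between d 2 and d 16 kept its call, which was lost when all probes were tested, by the Tukey-Kramer test and without any of 6 single arrays. It had no value where its probe was not tested (where every whey array had to be well above background, or with a minimum signal of 100). The slide as a fixed block could be fitted for d 9 against d 2 alone, since d 16 had its own slide. Where no cause is given, it was not tested.

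With spike-in scaling, d 9 against d 2 had 6882 probes called (2969 in the main analysis) with 1 member, d 16 against d 2 had 753 (4801), and d 16 against d 9 had 159 (239). Signs turned there for Igfbp1 (1.08, 0.57 and -0.51 log2 units for d 9 against d 2, d 16 against d 2 and d 16 against d 9), Igfbp2 (0.36 for d 9 against d 2 and -0.50 for d 16 against d 9), Irs2 A_44_P503503 (0.60 for d 9 against d 2), Igf1 A_44_P421499 (0.047 for d 16 against d 2, and 0.73 for whey minus serum) and Igf1 A_44_P366723 (-0.11 for d 16 against d 9). With normexp, Igfbp1 turned to 0.021 for d 16 against d 2 and Igfbp2 to -0.058 for d 16 against d 9, differences within their error.

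For d 16 against d 9 the called probes numbered 855 with normexp, 131 when all probes were tested, 538 where every whey array had to be above background, 618 with a minimum signal of 100, 676 with the slide as a random block, 654 with eBayes trend and 0 by the Tukey-Kramer test, which called 1297 for d 9 against d 2 and 2683 for d 16 against d 2. With the dam as a replicate block they numbered 117, and 1 member, Igf1 A_44_P421499, was called for d 9 against d 2, as with the random slide block; the block changed no other call of a member. The fixed slide block called 498 probes for d 9 against d 2 and put Igfbp1 at 0.10. Of the 4 member probes of the main analysis, those called for d 16 against d 2 fell from 1 to 0 when all probes were tested and by the Tukey-Kramer test. With all probes tested, members outside those 4 passed: Igf1 A_44_P126021 (1.81, adjusted p = 0.0142) and Igfbp5 A_44_P264240 (0.80, 0.0459) for d 16 against d 2, and Igfbp4 A_44_P515317 (-1.34, 0.0499) for d 9 against d 2, the last 2 never above background.

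Leaving out each array in turn gave 1266 (without d 9 dam 2) to 2718 called probes for d 9 against d 2, 2744 (without d 16 dam 3) to 4886 for d 16 against d 2, and 22 (without d 16 dam 3) to 259 for d 16 against d 9, with 0 to 1 member called in each of the first 2 comparisons. Igfbp1 ran from -0.55 to 0.12, from -0.27 to 0.27 and from -0.12 to 0.55 in the 3 comparisons, and Igfbp2 from -1.35 to 0.070 for d 9 against d 2 and from -0.76 to 0.59 for d 16 against d 9.

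With a minimum signal of 100 no member was detected (0 in each group). With no minimum the members detected numbered 4 at d 2, 7 at d 9, 6 at d 16 and 6 in serum, and when all arrays of a group had to be above background with a signal over 20 they numbered 0 at d 2. More than 4-fold higher in serum were 4 with spike-ins and 3 with normexp (7 in the main analysis), and in whey 0 with the 75th percentile and with normexp (1). Signals close to background limit all of these.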
